A study of Saccharomyces cerevisiae with 112 samples.

Results

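The 8 genes CAT8 (YMR280C), SIP4 (YJL089W), ADR1 (YDR216W), HAP4 (YKL109W), RDS2 (YPL133C), ERT1 (YBR239C), OAF1 (YAL051W) and PIP2 (YOR363C) encode activators of the genes that Saccharomyces cerevisiae uses to live on nonfermentable carbon. They were chosen by gene name, 1 feature each, from the 5560 yeast features listed in the deposited tables. The tables come from SLAM-seq, in which RNA made in the presence of 4TU, a thiolated uracil, is alkylated so that it is read with T-to-C conversions, and a read with conversions is here called labelled. A pulse and chase of strain KWY165 was sampled without glucose and with glucose at 0, 5, 10, 15, 20, 30 and 45 min, in 2 courses per condition with 1 library per time. In strain KWY11376, RNA of the polysome fraction and total RNA were taken after 30 min without glucose (given in the labels as post-labeling, 4TU) and from cells in glucose (given as 30 min, 4TU), with 2 libraries per group. Of the 112 samples of the series, 40 had tables and 72 were not analysed here. The remaining 4 libraries, from KWY165 without 4TU, hold polysome and total RNA after 30 min without glucose and with glucose, 1 library each. The labels used here spell out neither the genotypes behind the strain names nor when labelling began relative to the withdrawal in KWY11376, and nothing says whether replicates were separate cultures, so the p-values measure the spread between these libraries, which may be technical.

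Yeast keeps genes for other carbon sources repressed while glucose lasts, and the kinase Snf1 lifts this repression when glucose runs out, in part by inactivating the repressor Mig1. Cat8 and Sip4 are zinc cluster proteins that activate genes of gluconeogenesis and the glyoxylate cycle, and the expression of SIP4 depends on Cat8. Adr1 is a zinc finger protein that activates ADH2 and genes of peroxisomal fatty acid oxidation. Hap4 is the activating subunit of the Hap complex, whose DNA-binding subunits Hap2, Hap3 and Hap5 are made without it, and the complex drives genes of the respiratory chain and the TCA cycle. Rds2 and Ert1 are zinc cluster regulators of gluconeogenic genes, and Oaf1 and Pip2 form a pair of zinc cluster proteins that activate genes of fatty acid oxidation in the presence of oleate.

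The chase libraries held 2710630 to 10591665 yeast reads, those of KWY11376 14965187 to 31069123, and those without 4TU 15482446 to 29223067. The features are windows at the 3′ ends of genes: CAT8 was counted on chromosome XIII from 826659 to 827278, SIP4 on X from 268166 to 268960, ADR1 on IV from 898757 to 899653, HAP4 on XI from 233642 to 234455, RDS2 on XVI from 299540 to 300138, ERT1 on II from 698044 to 698604, OAF1 on I from 51458 to 52056 and PIP2 on XV from 1019682 to 1020472. The genome build of these positions is not stated in the labels or headers. These windows are 561 to 897 bases long, with ADR1 the longest. All 8 genes passed the filter on low counts in the fits of abundance, and in the chase did so in the libraries with glucose alone. The fits of labelled reads in the chase needed a mean of 50 reads, and there CAT8 and SIP4, with means of 17.9 and 36.5 reads with glucose, passed only through the libraries without glucose. In the chase the fewest reads of CAT8 in a library were 5 and of SIP4 7, so their levels with glucose carry the largest counting error. Multimapped reads made up 3.88% of the ERT1 reads and at most 0.311% of those of the other 7 genes. The windows of CAT8, ADR1 and OAF1 overlap windows on the opposite strand, CAT8 with PRM15 by 319 bases, ADR1 with RAD9 by 348 bases and OAF1 with AIM2 by 540 bases. Whether counting used the strand is not stated, and the values of these neighbours are given beside the results. Levels below are normalised CPM (read counts scaled to library size with TMM factors), differences are log2 values of without minus with glucose ± SE with n = 2 libraries per group unless said otherwise, and calls are at an adjusted p under 0.05 (edgeR's quasi-likelihood test, Benjamini-Hochberg adjustment over all features). All are relative to the other mRNAs of the library, and in these bulk samples fewer cells and less RNA per cell cannot be told apart. Where overlap of libraries is described below, the share of all features without overlap was not counted. A lack of overlap therefore does not set a gene apart from other features.

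After glucose was withdrawn, 7 of the 8 activator mRNAs rose above their level with glucose, at different times, although OAF1 did so by little and was below it at 45 min when the values were scaled to the spike-in (0.39 against -0.32). HAP4 was called higher from 5 min on, peaked at 15 min and then declined. CAT8 and ADR1 were called higher from 10 min on and had their highest normalised CPM at 45 min. For ADR1 the step between 30 and 45 min without glucose was only 0.13 and not called. The all-feature median of that step was -0.03, and -0.43 when scaled to the spike-in. RDS2 was called at 5 min, not at 10 min and again from 15 min, SIP4 was called from 20 min, and OAF1 and PIP2 from 30 min. With library totals the calls began sooner, at 15 min for SIP4 and OAF1 and, after 15 min, also at 20 min for PIP2. ERT1 was lower at 10 and 15 min and was not called afterwards. At 0 min none of the 8 passed (1, HAP4, at an unadjusted p under 0.05 and 1 with DESeq2), beside 0.507% of the 5525 features tested. At 5 min 2 were higher, where 8.14% of all features were. At 10 min 3 were higher and 1 lower, beside 22.3% higher and 40.5% called in either direction among all features, and at 15 min 5 were higher and 1 lower, beside 30.9% higher and 56.9% in either direction. At 20 min 5 were higher (34.1% of all features), at 30 min 7 (38.3%) and at 45 min 7 (40.0%). Scaled to the spike-in, 3 of the 8 were higher at 15 min, and 4 were higher and 1 lower at 45 min. The median difference of the 8 was 1.34 at 30 min, against 0.06 over all features. The order of the calls was not itself tested, and genes with more reads can be called at smaller differences. Over all features the median was 0.36 at 30 min with library totals and -0.42 when scaled to the spike-in, and at 45 min it was 0.37 and -0.64.

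**Figure D1:**
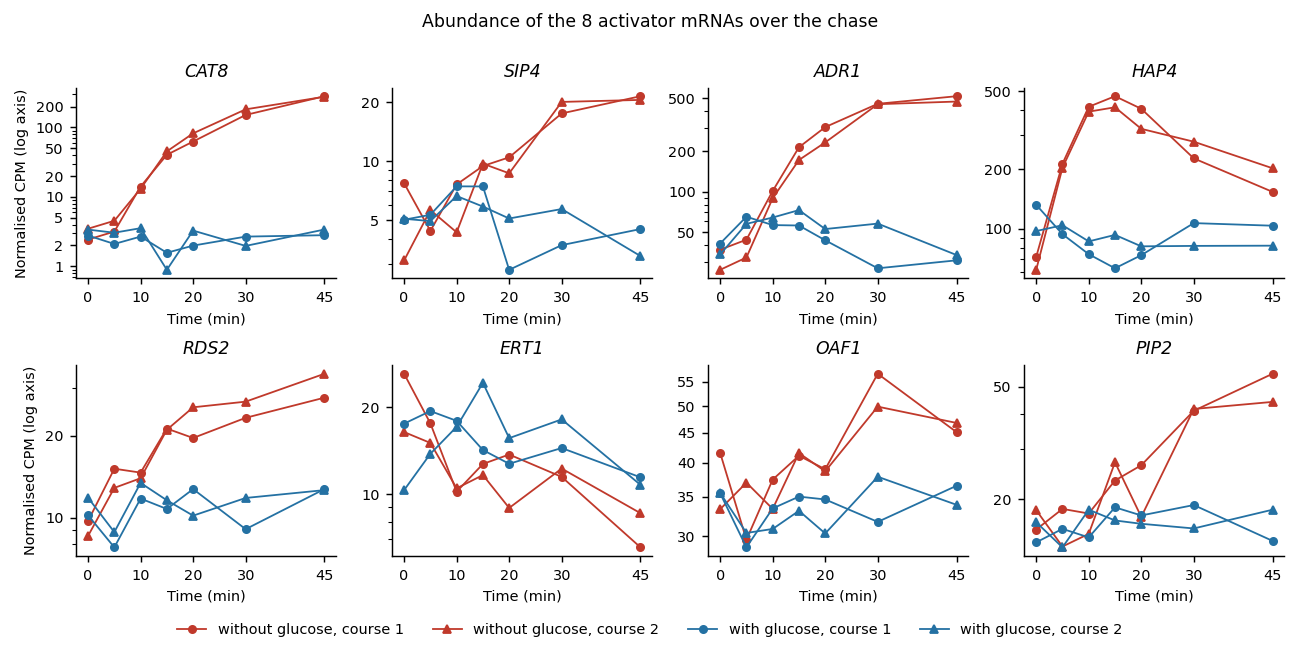
Normalised CPM (log axis, its range set for each gene) of the 8 mRNAs against time in min, with 1 line per course, red without glucose and blue with glucose. HAP4 without glucose peaked at 15 min at 472 and 414 CPM, while CAT8 and ADR1 without glucose were highest at 45 min, at 282 and 277 CPM and at 516 and 471 CPM.

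HAP4 was called from 5 min on, earlier than the lasting calls of the other genes. Without glucose it had 71.8, 214, 417, 472, 407, 228 and 154 CPM from 0 to 45 min in the first course and 61.8, 204, 394, 414, 322, 277 and 203 CPM in the second. With glucose it had 132, 93.7, 74.1, 62.9, 73.3, 107 and 104 CPM and 97.2, 104, 86.1, 92.9, 81.3, 81.7 and 81.9 CPM. The courses without glucose were the lower ones at 0 min and the higher ones at every later time, and the conditions did not overlap at any time. The difference was -0.79 ± 0.20 at 0 min (adjusted p = 0.0838), a value that passed the threshold with DESeq2 (adjusted p = 0.0178), with library totals (-0.81), in a fit of the 4 libraries alone (-0.80) and without the second course with glucose (-0.996). HAP4 was then higher by 1.08 ± 0.19 (adjusted p = 0.000447) at 5 min, which is 2.11-fold and rank 134 of 5525 features from the top, and by 2.51 ± 0.20 (adjusted p = 1.11e-10) at 15 min. By 45 min the difference was 0.95 ± 0.19 (adjusted p = 9.47e-05). Scaled to the spike-in, the value at 45 min was 0.21 and no longer called.

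Within the courses without glucose, HAP4 rose by 1.65 ± 0.20 (adjusted p = 3.87e-06) between 0 and 5 min, 3.14-fold, and it was the 1 member to pass in a step in which 2.14% of features rose. It rose by a further 0.95 ± 0.19 (adjusted p = 0.00138) between 5 and 10 min, a step in which 7.48% of features and 3 of the 8 rose. The call between 5 and 10 min was lost without the first or the second course without glucose (0.94 and 0.93). Between 20 and 30 min HAP4 fell, in a step in which 23.3% of features were called in either direction (-0.53 ± 0.19, adjusted p = 0.0428). That call was also lost without the first course without glucose (-0.23) and without the second (-0.85). The step between 10 and 15 min, 0.13 ± 0.19, did not pass. At 45 min the courses without glucose stood at 0.326 and 0.490 of their own peak.

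Of the DNA-binding partners of Hap4, HAP2 and HAP5 were not called at 5 min and rose later. HAP2 was called from 10 min (0.78 ± 0.17, adjusted p = 0.00082) and was at 1.65 ± 0.17 at 30 min, and HAP5 was at 0.68 ± 0.21 (adjusted p = 0.0119) at 10 min and 1.18 ± 0.20 at 30 min. HAP3 did not pass up to 30 min (-0.24 ± 0.17) and was lower at 45 min (-0.61 ± 0.17, adjusted p = 0.00288). Of 21 genes listed as targets of the Hap complex, 11 were higher at 5 min and 15 at 10 min, beside 8.14% and 22.3% of all features. Their medians were 0.42 and 0.74, but their median was already 0.28 at 0 min, with none called. At 30 min 20 were higher and 1 lower with a median of 1.65, beside 38.3% of all features higher. Among the 20 were SDH4, a subunit of succinate dehydrogenase (3.08 ± 0.19, adjusted p = 5.45e-13), and KGD2, a subunit of alpha-ketoglutarate dehydrogenase (2.37 ± 0.16, adjusted p = 1.86e-12). The 1 that fell, named after its value was seen, was the aconitase gene ACO1 (-0.70 ± 0.22, adjusted p = 0.00722).

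CAT8 had the largest change of the 8. Without glucose it had 2.44, 3.17, 14.1, 40.4, 62.8, 152 and 282 CPM from 0 to 45 min in the first course and 3.49, 4.54, 13.1, 45.3, 82.3, 182 and 277 CPM in the second. With glucose it lay between 0.892 and 3.55 CPM in all 14 libraries. The conditions overlapped at 0 min and did not overlap at any later time, and both courses without glucose were higher at each time than at the one before. CAT8 was higher by 2.09 ± 0.26 (adjusted p = 8.22e-07) at 10 min, by 5.06 ± 0.25 (adjusted p = 1.47e-14) at 15 min and by 6.12 ± 0.23 (adjusted p = 7.34e-17) at 30 min. At 45 min the difference was 6.46 ± 0.22 (adjusted p = 4.79e-18), or 88.0-fold. It ranked 15 of 5525 features from the top at 30 min. In steps, CAT8 rose by 1.82 ± 0.25 (adjusted p = 1.85e-05) between 5 and 10 min and by 1.65 ± 0.18 (adjusted p = 2.33e-06) between 10 and 15 min, and the 3 later steps also passed, at 0.76, 1.21 and 0.74. The step between 15 and 20 min was not called without any 1 of the 4 courses (0.62 to 0.86) or when scaled to the spike-in (0.86), and the step between 30 and 45 min was not called without the first course without glucose (0.59) or when scaled to the spike-in (0.34). PRM15, whose window overlaps that of CAT8, differed by 1.22 at 30 min (adjusted p = 6.3e-08).

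SIP4, whose product binds the same element as Cat8, was called later and at smaller differences. At 30 min it had 17.5 and 20.1 CPM without glucose, against 3.73 and 5.70 CPM with glucose, and at 45 min 21.4 and 20.5 CPM against 4.50 and 3.28 CPM. The conditions did not overlap at 15 min or later, while at 0, 5 and 10 min they did, and the 2 courses without glucose stood apart at 0 min, at 7.71 and 3.11 CPM, with 5.02 and 5.08 CPM in glucose. SIP4 was higher by 1.13 ± 0.37 (adjusted p = 0.00987) at 20 min, by 2.03 ± 0.32 (adjusted p = 4.23e-06) at 30 min and by 2.46 ± 0.32 (adjusted p = 1.72e-07) at 45 min. The call at 20 min was lost without the first course without glucose (0.97), without the first course with glucose (0.91) and with the difference at 0 min subtracted (1.12). With library totals SIP4 was already called at 15 min (0.71, adjusted p = 0.0452). The 1 step that passed was 0.96 ± 0.30 (adjusted p = 0.0221) between 20 and 30 min, not called without the second course without glucose (0.74) or when scaled to the spike-in (0.59). Of 10 genes listed as targets of the Cat8 and Sip4 type, 1 was higher at 5 min, 5 at 10 min and 10 at 30 min, with medians of 0.01, 0.58 and 2.08. At these times 8.14%, 22.3% and 38.3% of all features were higher. JEN1, a lactate transporter, was higher by 1.15 ± 0.24 (adjusted p = 0.000452) at 10 min and by 6.41 ± 0.22 (adjusted p = 5e-18) at 45 min, and ADY2, an acetate transporter, by 1.95 ± 0.49 (adjusted p = 0.00295) and 6.89 ± 0.34 (adjusted p = 1.07e-14).

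ADR1 had 36.9, 43.9, 101, 215, 304, 453 and 516 CPM from 0 to 45 min in the first course without glucose and 26.1, 32.3, 89.4, 172, 233, 450.1 and 471 CPM in the second. With glucose it had 41.1, 65.1, 56.4, 56.0, 43.4, 26.8 and 30.8 CPM and 34.0, 57.6, 64.2, 72.9, 52.7, 57.8 and 33.7 CPM. The courses without glucose were the lower ones at 5 min and the higher ones from 10 min on, with no overlap at those times. At 5 min the difference was -0.69 ± 0.25 (adjusted p = 0.0655), which ranked 110 of 5525 from the bottom and passed the threshold with DESeq2 (adjusted p = 0.0365) and in a fit of the 4 libraries alone (adjusted p = 0.0158). ADR1 was higher by 0.66 ± 0.24 (adjusted p = 0.0311) at 10 min, by 1.59 ± 0.23 (adjusted p = 4.24e-06) at 15 min, by 3.44 ± 0.25 (adjusted p = 2.98e-11) at 30 min and by 3.93 ± 0.26 (adjusted p = 2.38e-12) at 45 min, the last being 15.3-fold. The call at 10 min was lost without either course without glucose (0.57 and 0.71), without the first course with glucose (0.58), when scaled to the spike-in (0.57) and with the difference at 0 min subtracted (0.93). RAD9, the opposite-strand neighbour of ADR1, moved the other way, by -1.29 at 30 min (adjusted p = 1.4e-06).

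In steps without glucose, ADR1 rose by 1.32 ± 0.25 (adjusted p = 0.000861) between 5 and 10 min, by 1.02 ± 0.23 (adjusted p = 0.00756) between 10 and 15 min and by 0.75 ± 0.22 (adjusted p = 0.018) between 20 and 30 min. The first of these was not called without the second course without glucose (1.17), the others without either course without glucose (0.93 and 1.10, 0.94 and 0.57), and the last also when scaled to the spike-in (0.37). Of all features, 5.94% rose between 10 and 15 min, 1.54% between 15 and 20 min, 10.5% between 20 and 30 min and 6.05% between 30 and 45 min, where 2, 1, 5 and 1 of the 8 did. All 8 genes listed as targets of the Adr1 type were higher at 30 min (median 3.18), 5 at 10 min and none at 5 min. At these times 38.3%, 22.3% and 8.14% of all features were higher. POT1, the peroxisomal thiolase, was higher by 7.01 ± 0.33 (adjusted p = 2.37e-15) at 30 min, and FOX2, the multifunctional enzyme of the same pathway, by 2.67 ± 0.15 (adjusted p = 7.07e-14).

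RDS2, a regulator of gluconeogenic genes, was higher by a little over 1 on the log2 scale late in the chase. It had 23.3 and 26.7 CPM at 30 min and 27.6 and 33.7 CPM at 45 min without glucose, against 9.09 and 11.8 CPM and 12.8 and 12.6 CPM with glucose. The courses without glucose were the lower ones at 0 min and the higher ones at every later time, with no overlap. RDS2 was higher by 0.75 ± 0.21 (adjusted p = 0.0159) at 5 min, differed by 0.18 ± 0.20 at 10 min (not called), and was higher by 0.92 ± 0.19 (adjusted p = 0.000158) at 15 min and by 1.27 ± 0.20 (adjusted p = 2.76e-06) at 30 min. The call at 5 min was lost without the first course without glucose (0.64), without either course with glucose (0.66 and 0.85), in a fit of the 4 libraries alone (0.76), with the difference at 0 min subtracted (1.02) and when scaled to the spike-in (0.75). Scaled to the spike-in, the values at 15 and 45 min were 0.51 and 0.56 and not called. No single step of RDS2 passed.

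ERT1 was the 1 gene of the 8 not called higher at any time. Without glucose it had 26.2, 17.6, 10.2, 12.7, 13.7, 11.5 and 6.54 CPM from 0 to 45 min in the first course and 16.4, 15.1, 10.5, 11.7, 8.96, 12.3 and 8.59 CPM in the second, and with glucose 17.6, 19.4, 17.97, 14.2, 12.8, 14.5 and 11.4 CPM and 10.3, 13.8, 17.1, 24.4, 15.7, 18.2 and 10.8 CPM. The courses without glucose were the lower ones at 10, 15, 30 and 45 min, with no overlap, and those of the same condition stood apart at 0 min. ERT1 was lower at 10 min (-0.76 ± 0.29, adjusted p = 0.0408) and at 15 min (-0.65 ± 0.27, adjusted p = 0.0439), and its later differences of -0.34 ± 0.32, -0.44 ± 0.29 and -0.52 ± 0.31 were not called. At 30 min the 95% interval ran from -1.01 to 0.12. The call at 10 min was lost without any 1 of the 4 courses (-0.72 to -0.82) and the one at 15 min without either course without glucose (-0.74 and -0.61) or without the second course with glucose (-0.23). Both were lost with library totals (-0.59 and -0.44). ERT1 was called lower at 30 and 45 min when the values were scaled to the spike-in (-0.92 and -1.26) and when the difference at 0 min was subtracted (-0.99 and -1.07).

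OAF1 and PIP2 were called at both 30 and 45 min. OAF1 had 56.8 and 49.9 CPM without glucose at 30 min, against 31.7 and 37.9 CPM with glucose, and PIP2 had 41.1 and 41.7 CPM against 19.1 and 15.8 CPM. At that time the conditions did not overlap for either gene. At 45 min OAF1 had 45.1 and 46.8 CPM without glucose and 36.6 and 33.9 CPM with glucose, and PIP2 55.6 and 44.2 CPM and 14.2 and 18.4 CPM. OAF1 was higher by 0.62 ± 0.14 (adjusted p = 0.000436) at 30 min and by 0.39 ± 0.14 (adjusted p = 0.017) at 45 min, but the value at 45 min was -0.32 when scaled to the spike-in, and the one at 30 min was then 0.15, neither called. Without the first course with glucose neither was called (0.46 and 0.41), and the value at 45 min was also not called without the second course without glucose (0.33) or the second with glucose (0.29). PIP2, whose product pairs with Oaf1, was higher by 1.24 ± 0.20 (adjusted p = 5.76e-06) at 30 min and by 1.59 ± 0.20 (adjusted p = 8.01e-08) at 45 min. A call at 15 min (0.49 ± 0.20) was not kept at 20 min (0.40 ± 0.22), nor with DESeq2 (0.45), without the second course without glucose (0.37) or without either course with glucose (0.57 and 0.41). With library totals OAF1 was called at 15 min (0.48, adjusted p = 0.00935) and at 20 min (0.56, adjusted p = 0.0055), and PIP2 at 20 min (0.68, adjusted p = 0.0104). Both rose between 20 and 30 min, PIP2 by 0.90 ± 0.20 (adjusted p = 0.00239) and OAF1 by 0.45 ± 0.15 (adjusted p = 0.0249). The step of PIP2 was lost without the second course without glucose (0.63) and that of OAF1 without any 1 of the courses (0.36 to 0.53), and both were lost when scaled to the spike-in (0.53 and 0.08).

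AIM2, which shares 540 bases with OAF1 on the opposite strand, differed by 0.74 at 30 min (adjusted p = 3.25e-05), close in size to OAF1, and its part in the OAF1 counts was not tested. Of 14 genes listed as targets of the Oaf1 and Pip2 type, none was higher at 5 min, 7 were higher and 1 lower at 10 min, and 13 were higher and 1 lower at 30 min with a median of 2.63. At these times 8.14%, 22.3% and 38.3% of all features were higher. The list shares 4 genes with that of Adr1, POT1 among them, and ECI1, an enoyl-CoA isomerase, was higher by 3.53 ± 0.19 (adjusted p = 2.38e-14) at 30 min. The 1 that fell, named after its value was seen, was ANT1, a peroxisomal carrier of adenine nucleotides (-0.90 ± 0.16, adjusted p = 2.58e-05). Of 14 genes of the Snf1 kinase and the Mig repressors, 8 were higher and 1 was lower at 30 min with a median of 0.56, beside 38.3% of all features higher, and in total RNA of KWY11376 4 were higher and 4 lower. SIP2, a beta subunit of Snf1, was higher by 3.03 ± 0.19 (adjusted p = 7.11e-13), and GAL83, another beta subunit, by 0.88 ± 0.13 (adjusted p = 1.99e-06). The 1 that fell, also named afterwards, was SAK1, a kinase that activates Snf1 (-0.80 ± 0.17, adjusted p = 0.000213).

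**Figure D2:**
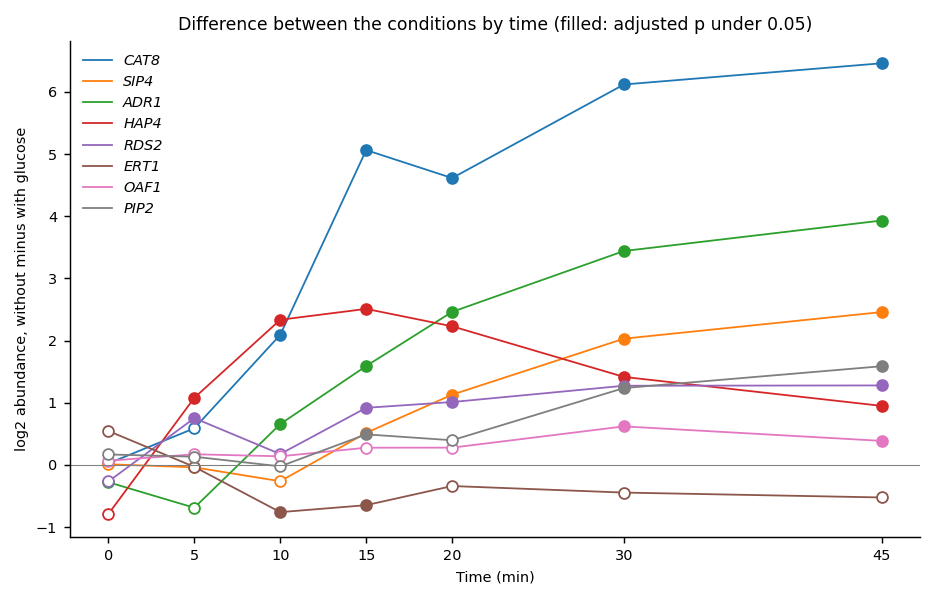
Log2 difference in abundance, without minus with glucose, against time in min, with 1 line per gene, filled points for an adjusted p under 0.05 and open points for the others. HAP4 goes through its largest difference at 15 min (2.51), CAT8 reaches 6.46 at 45 min, and ERT1 is the 1 line below 0 at 45 min, where OAF1 (0.39) is also below 0 when scaled to the spike-in (-0.32).

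The share of labelled reads fell over the chase, although the labelled reads of some of the 8 mRNAs rose without glucose, as given below. The share of labelled reads in a library was 62.6% and 62.3% at 0 min without glucose and 61.0% and 61.1% with glucose, and at 45 min it was 34.9% and 38.9% without glucose, against 18.8% and 18.3% with glucose. The shares of the 8 mRNAs fell likewise. HAP4 had 64.1% and 63.1% labelled reads at 0 min and 27.5% and 32.2% at 45 min without glucose, and 60.0% and 58.7% and then 10.9% and 11.9% with glucose. CAT8 had 58.3% and 57.1% at 0 min and 22.7% and 26.5% at 45 min without glucose, and 64.5% and 55.0% and then 13.3% and 6.90% with glucose. With glucose CAT8 had only 15 and 29 reads at 45 min, so that the exact 95% intervals of its last shares ran from 1.66% to 40.5% and from 0.846% to 22.8%, for counting error only. Without glucose ERT1 had the highest shares of the 8 at 0 and at 45 min, 76.7% and 74.2% at 0 min and 40.6% and 50.7% at 45 min, against 63.8% and 59.0% and 11.5% and 17.4% with glucose.

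The odds of labelled against unlabelled reads fell over 0 to 45 min for all 8 mRNAs in both conditions, as for 91.8% of 5224 features without glucose and 99.8% with glucose (14 libraries per condition). The log2 slopes per 10 min lay between -0.48 ± 0.09 (SIP4) and -0.28 ± 0.07 (RDS2) without glucose, with an all-feature median of -0.38, and between -0.82 ± 0.15 (CAT8) and -0.47 ± 0.13 (SIP4) with glucose, with a median of -0.77. Of the 6 genes that passed the minimum of 50 reads with glucose alone, 5 had a slower fall without glucose, a share beside 93.2% of all features, with differences of 0.54 ± 0.13 for RDS2, 0.30 ± 0.06 for HAP4, 0.29 ± 0.08 for OAF1, 0.27 ± 0.13 for ERT1 and 0.27 ± 0.07 for ADR1, where the all-feature median was 0.39. PIP2 was not called (0.17 ± 0.11, adjusted p = 0.136). Of the 2 that did not pass with glucose alone, CAT8 was at 0.42 ± 0.16 (adjusted p = 0.0134) and SIP4 at -0.01 (adjusted p = 0.994). The calls depend on the window. Over 0 to 20 min ADR1 (0.07), CAT8 (0.15) and ERT1 (0.11) were not called and PIP2 was (0.64, adjusted p = 0.0234), and over 0 to 30 min RDS2 (0.31), ERT1 (0.32) and CAT8 (0.47) were not called. The call of CAT8 was lost without the second course without glucose (0.33) or either course with glucose (0.42 and 0.43), that of ERT1 without the second course without glucose (0.22) or the first with glucose (0.16), and that of OAF1 without the second course without glucose (0.21), while PIP2 was called without the first course without glucose (0.31) and with conversions per covered T (0.18). Without glucose the fall of SIP4 was not called with limma on 1 slope per course (-0.26, adjusted p = 0.0867), and over 0 to 20 min neither was that of PIP2 (-0.26) or RDS2 (-0.19). With glucose the fall of SIP4 was not called without the second course with glucose (-0.27). A share also falls when unlabelled copies are made, so its slope does not measure decay alone. For CAT8 and ADR1 without glucose the share fell while labelled reads rose, so there it is no measure of label loss. The same holds for SIP4, RDS2 and PIP2, whose labelled reads also rose, though not when scaled to the spike-in, as given below. Labelled HAP4 reads without glucose rose at first as well, up to 15 min in the first course and 10 min in the second.

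Labelled reads were therefore also taken as normalised CPM, scaled to all reads of the library with TMM factors. Unlabelled copies of the same gene do not dilute this measure. With glucose they fell for all 8 mRNAs, as for 98.6% of features, with slopes between -0.63 ± 0.26 (CAT8) and -0.36 ± 0.07 (PIP2) per 10 min on the log2 scale. The fall of CAT8 was not called without the first (-0.67) or the second (-0.61) course with glucose, nor that of SIP4 without the second (-0.26). Without glucose they rose for 3 and fell for 2 of the 6 genes that passed with glucose alone, where 15.3% of features rose and 80.1% were called in either direction. Labelled CAT8 reads had 1.42, 2.29, 7.61, 14.9, 22.5, 47.6 and 63.9 CPM from 0 to 45 min in the first course without glucose and 1.99, 2.00, 6.15, 17.1, 34.7, 62.2 and 73.3 CPM in the second, with at most 1.86 CPM in any library with glucose. Labelled ADR1 reads were at 21.3 and 17.8 CPM at 0 min and 172 and 172 CPM at 30 min without glucose, against 24.7 and 22.5 CPM and 5.66 and 9.86 CPM with glucose. Both mRNAs had more labelled reads late in the courses without glucose than at their start, and fewer in those with glucose. The cause of this rise was not tested. The slopes without glucose were 1.15 ± 0.11 (adjusted p = 1.49e-10) for CAT8, 0.71 ± 0.10 (adjusted p = 8.08e-07) for ADR1, 0.26 ± 0.08 (adjusted p = 0.00275) for SIP4, 0.18 ± 0.06 (adjusted p = 0.0104) for RDS2 and 0.17 ± 0.06 (adjusted p = 0.00493) for PIP2, but scaled to the spike-in RDS2 and PIP2 were at -0.02 and -0.04 and SIP4 at 0.05, none of them called. With limma on 1 slope per course SIP4 was at 0.27 and not called (adjusted p = 0.119), and over 0 to 20 min neither was PIP2 (0.13). Without the second course without glucose the slopes of RDS2 and PIP2 were 0.10 and 0.09 and not called.

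Labelled HAP4 reads followed the peak of the mRNA. Without glucose they had 46.1, 139, 220.4, 227, 192, 91.5 and 42.3 CPM and 39.0, 128, 217, 215, 159, 109 and 65.2 CPM from 0 to 45 min, with glucose 79.3, 36.8, 23.96, 17.9, 17.9, 18.8 and 11.2 CPM and 57.1, 51.8, 35.0, 27.8, 22.7, 15.6 and 9.71 CPM. A single slope over 0 to 45 min does not describe this rise and fall and was -0.22 ± 0.15 per 10 min without glucose (adjusted p = 0.198), while over 0 to 20 min it was 0.87 (adjusted p = 0.00571) and, scaled to the spike-in, it was called lower over 0 to 45 min (-0.41). Labelled ERT1 reads fell in both conditions, with slopes of -0.41 ± 0.07 (adjusted p = 2.39e-06) per 10 min without glucose and -0.52 ± 0.08 (adjusted p = 2.69e-07) with glucose, and the difference of these slopes was not called (0.10 ± 0.11, adjusted p = 0.38). Labelled OAF1 reads fell less without glucose (-0.10 ± 0.04, adjusted p = 0.0449) than with glucose (-0.50 ± 0.05, adjusted p = 1.89e-11), and the fall without glucose was lost without the first course without glucose (-0.07), the second (-0.14) or the second with glucose (-0.10), with limma on 1 slope per course (-0.10), and over 0 to 20 min (-0.13) and 0 to 30 min (-0.02). The difference of slopes was called for 4 of the 6 genes that passed with glucose alone, beside 74.3% of features: 1.30 ± 0.16 for ADR1, 0.75 ± 0.11 for RDS2, 0.53 ± 0.09 for PIP2 and 0.40 ± 0.07 for OAF1, with an all-feature median of 0.33. For CAT8 it was 1.78 ± 0.26 and for SIP4 0.68 ± 0.13, genes that passed the minimum only through the condition in which they were high. With a minimum mean of 10 reads, which both pass with glucose alone, these values were 1.78 ± 0.26 (adjusted p = 1.10e-06) and 0.68 ± 0.13 (adjusted p = 2.73e-05). HAP4 was at 0.35 ± 0.20 (adjusted p = 0.102) over the whole chase and was called over 0 to 20 min (1.79, adjusted p = 0.000224), over 0 to 30 min (0.88, adjusted p = 0.0109) and with limma on 1 slope per course (0.42, adjusted p = 0.000548).

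**Figure D3:**
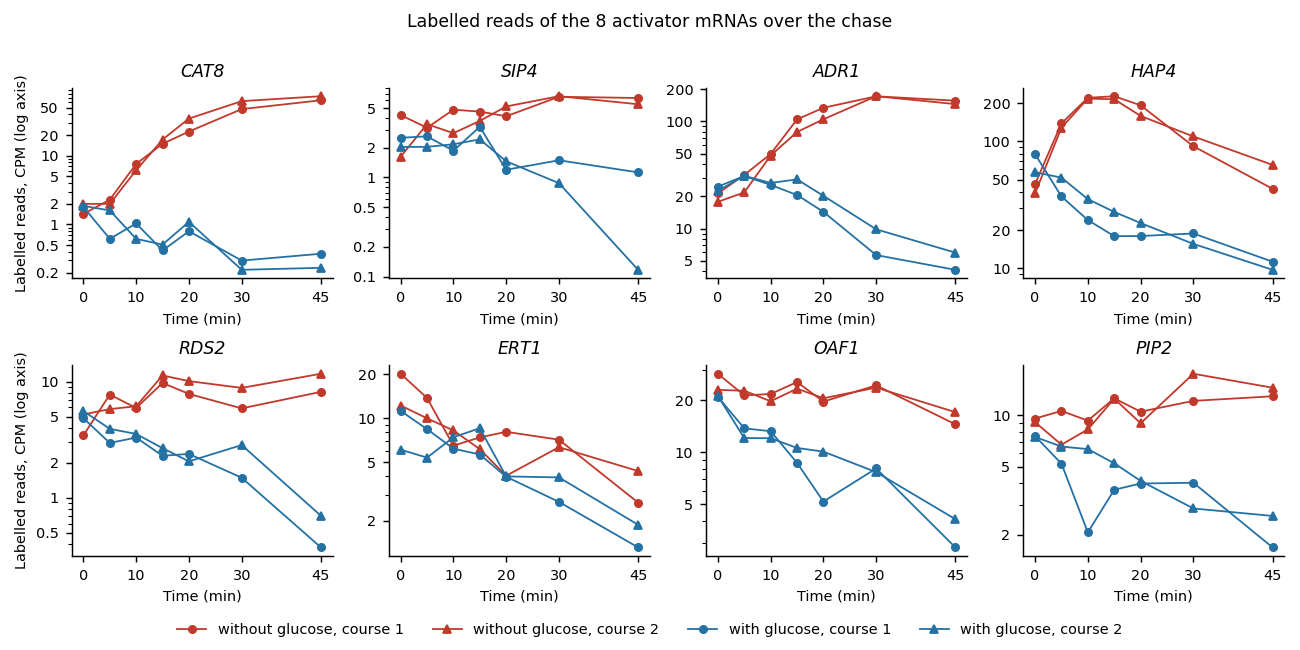
Labelled reads of each mRNA in normalised CPM (log axis, its range set for each gene) against time in min, with 1 line per course, red without glucose and blue with glucose. The scaling is to all reads of the library with TMM factors. Labelled CAT8 and ADR1 reads without glucose are above their level at 0 min at every later time. For CAT8 in the second course the values at 0 and 5 min are nearly equal (1.99 and 2.00 CPM). Labelled HAP4 reads peak at 227 and 217 CPM, and with glucose all 8 are lower at 45 min than at 0 min.

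Total RNA of KWY11376 after 30 min without glucose covers the same withdrawal in another strain. There 5 of the 8 were higher and 2 lower, beside 29.4% higher and 58.7% called in either direction among 5540 features. CAT8 had 25.2 and 38.6 CPM without glucose, against 3.89 and 2.73 CPM with glucose, a difference of 3.27 ± 0.28 (adjusted p = 7.81e-08). SIP4 had 26.9 and 25.1 CPM against 1.71 and 2.83 CPM, a difference of 3.51 ± 0.35 (adjusted p = 4.50e-07), the largest of the 8 here. HAP4 had 112 and 120.5 CPM against 37.7 and 44.1 CPM and differed by 1.51 ± 0.18 (adjusted p = 3.82e-06). The conditions did not overlap for these 3 genes. RDS2 had 16.8 and 19.6 CPM without glucose, against 5.96 and 5.92 CPM with glucose. It differed by 1.61 ± 0.30 (adjusted p = 0.000222) and ADR1 by 1.03 ± 0.20 (adjusted p = 0.000445), with 86.7 and 98.3 CPM of ADR1 without glucose and 39.0 and 51.6 CPM with glucose. OAF1 fell to 15.3 and 12.3 CPM without glucose, against 37.0 and 34.3 CPM with glucose (-1.37 ± 0.24, adjusted p = 0.000127), and ERT1 fell to 7.41 and 7.95 CPM, against 10.1 and 16.4 CPM (-0.79 ± 0.30, adjusted p = 0.0352). The conditions did not overlap for these 4 genes either, with ADR1 and RDS2 above and OAF1 and ERT1 below their level with glucose. The share of all features without overlap was not counted, so the lack of overlap does not set these genes apart. The ERT1 call was lost without either library without glucose (-0.74 and -0.84) or the second with glucose (-0.39). PIP2, whose values overlapped, was at -0.02 (adjusted p = 0.962), with 16.9 and 17.7 CPM against 17.6 and 17.4 CPM. When library totals replaced TMM factors, the median of all features moved to -0.45 and these 7 calls kept their direction and side of the threshold.

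Set against the chase at 30 min, the change differed for 5 of the 8, being higher in the chase for 4 and lower for 1, beside 24.1% higher and 43.4% in either direction among 5533 features. The change in the chase was larger for CAT8 (by 2.86 ± 0.41, adjusted p = 7.05e-05) and ADR1 (by 2.41 ± 0.37, adjusted p = 0.000138), and higher for OAF1 (by 1.99 ± 0.27, adjusted p = 2.90e-05) and PIP2 (by 1.26 ± 0.27, adjusted p = 0.00152). For SIP4 it was smaller (-1.47 ± 0.42, adjusted p = 0.0106), a call that was lost without the second chase library with glucose (-1.23) and with library totals (-0.78), a scaling that moved the median of all features in this comparison to 0.80. HAP4, RDS2 and ERT1 were at -0.09 ± 0.25, -0.34 ± 0.33 and 0.34 ± 0.39, none called. HAP4 (0.62) and ERT1 (1.04) passed with library totals. OAF1 was the 1 gene called in opposite directions in the experiments, higher in the chase and lower in total RNA. AIM2 on the opposite strand was at 0.39 in total RNA (adjusted p = 0.101). The 2 experiments differ in strain, in labelling, in library depth and possibly in the library kit, and these cannot be told apart.

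**Figure D4:**
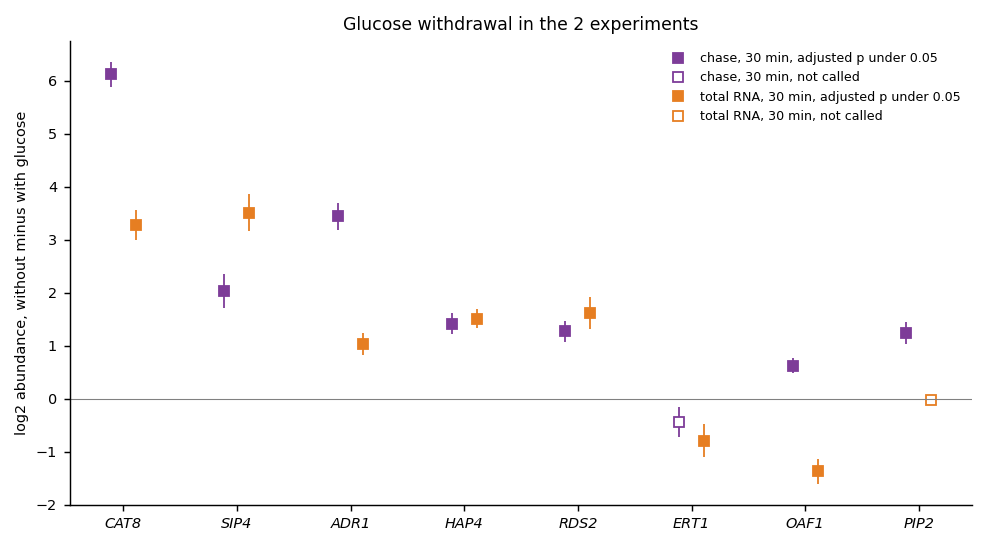
Log2 abundance without minus with glucose (± SE, 2 libraries per group, no bar for estimates within 0.05 of 0) for each gene, purple in the chase at 30 min and orange in total RNA at 30 min, filled for an adjusted p under 0.05. OAF1 is at 0.62 in the chase and -1.37 in total RNA, while HAP4 is at 1.42 and 1.51.

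The libraries without 4TU, from the strain of the chase, have no replicates and their values carry counting error only. CAT8 had 16.3 CPM (exact Poisson 95% interval 14.4 to 18.3) without glucose, against 1.35 CPM (0.919 to 1.92) with glucose, HAP4 had 176 CPM (exact Poisson 95% interval 170.0 to 183) without glucose, against 40.4 CPM (37.8 to 43.1) with glucose, and ADR1 had 27.6 CPM (exact Poisson 95% interval 25.1 to 30.2) without glucose, against 15.8 CPM (14.2 to 17.5) with glucose, in CPM of all reads. The ratios in total RNA without over with glucose were 12.02 for CAT8, 6.38 for SIP4, 4.37 for HAP4, 1.75 for ADR1, 1.58 for RDS2, 0.749 for OAF1, 0.603 for PIP2 and 0.459 for ERT1. OAF1, PIP2 and ERT1 were the 3 below 1. The all-feature median of these ratios was not taken, so a ratio of 1 need not mean no change relative to other mRNAs. In total RNA of KWY11376 the all-feature median with library totals was -0.45 on the log2 scale. For comparison, the chase in the same strain gave 69.5-fold for CAT8 and 10.9-fold for ADR1 at 30 min. Its log2 differences were 2.03 for SIP4, 1.42 for HAP4, 1.27 for RDS2 and -0.44 for ERT1 (not called). OAF1 and PIP2, below 1 here, were higher in the chase, at 0.62 and 1.24. The scales differ, since the chase values come from a fit with TMM factors and these ratios from CPM of all reads. Of the 15044 reads of the 8 genes in these libraries 1 was labelled, or 0.00665% (exact 95% interval 0.000168% to 0.0370%), far under the shares in the libraries with 4TU in glucose.

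The polysome fraction holds mRNAs bound by several ribosomes. Its values here are relative to total RNA and to the other mRNAs, so they do not measure what part of an mRNA was bound. Relative to total RNA, ADR1 and CAT8 were enriched in the polysome fraction after glucose withdrawal and not in glucose, and none of the other 6 was called without glucose. ADR1 had 219 and 236 CPM in polysomes and 86.7 and 98.3 CPM in total RNA without glucose, and 34.5 and 48.0 CPM in polysomes and 39.0 and 51.6 CPM in total RNA with glucose. Polysomes and total RNA did not overlap without glucose and overlapped with glucose. CAT8 had 76.8 and 69.2 CPM in polysomes and 25.2 and 38.6 CPM in total RNA without glucose, and 3.30 and 3.24 CPM and 3.89 and 2.73 CPM with glucose, with the same pattern of overlap. The log2 difference of polysomes minus total RNA without glucose was 1.30 ± 0.20 (adjusted p = 9.34e-05) for ADR1 and 1.20 ± 0.25 (adjusted p = 0.00109) for CAT8, 2 of the 8 beside 25.7% of features. With glucose it was -0.14 ± 0.20 for ADR1 and -0.01 for CAT8, neither called. The association was higher without than with glucose by 1.44 ± 0.29 (adjusted p = 0.00353) for ADR1, 2.71-fold, and by 1.21 ± 0.38 (adjusted p = 0.0418) for CAT8, where 8.16% of features had a higher one. The CAT8 call was lost without any 1 of 6 of the 8 libraries, all but the second of each pair of total RNA libraries (0.93 to 1.28), and with library totals (0.99, adjusted p = 0.159). With library totals CAT8 was not called without glucose either (0.45), a scaling under which the median of all features moved to -0.73.

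HAP4, although higher after glucose withdrawal, was not called higher in polysomes. It had 101 and 85.4 CPM in polysomes and 112 and 120.5 CPM in total RNA without glucose (-0.32 ± 0.18, adjusted p = 0.151), and 26.4 and 25.5 CPM and 37.7 and 44.1 CPM with glucose (-0.66 ± 0.18, adjusted p = 0.0139). It was lower in polysomes than in total RNA in all 4 pairs of values, and with glucose it was the 1 member called lower, beside 13.6% of features. That call was lost without the second library of polysomes (-0.63) or of total RNA with glucose (-0.54) and in a fit of the 4 libraries of the condition (-0.66). SIP4, which rose 11.4-fold in total RNA, had 15.9 and 20.7 CPM in polysomes and 26.9 and 25.1 CPM in total RNA without glucose (-0.51 ± 0.32, adjusted p = 0.194), with no overlap. With library totals SIP4 (-1.24) and HAP4 (-1.07) were called lower in polysomes without glucose, and ADR1 (-0.65), OAF1 (-0.95) and PIP2 (-0.99) joined HAP4 with glucose. For the other 4 genes the difference of the associations was 0.81 ± 0.33 for OAF1, 0.55 ± 0.37 for PIP2, -0.09 ± 0.41 for RDS2 and -0.08 ± 0.43 for ERT1, none called, and for ERT1 the 95% interval ran from -0.92 to 0.76.

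Among the genes these activators are listed to control, 6 of 10 of the Cat8 and Sip4 type and 5 of 8 of the Adr1 type had a higher association without glucose and none a lower one, with medians of 1.27 and 1.03 against 0.01 over all features. A higher association was called for 8.16% of all features. JEN1 was at 1.68 ± 0.27 (adjusted p = 0.00108) and POT1 at 1.54 ± 0.30 (adjusted p = 0.00314). Of 21 genes of the Hap type 3 had a higher and none a lower association, with a median of 0.34, and of 14 of the Oaf1 and Pip2 type 6 were higher and 1 lower (median 0.60). HAP3 was enriched on polysomes both without (1.38 ± 0.21, adjusted p = 5.65e-05) and with glucose (1.80 ± 0.20, adjusted p = 5.34e-05). The opposite-strand neighbours PRM15 and RAD9 differed by -0.24 and 0.70 between the conditions and were not called. In the libraries without 4TU, the ratio of polysomes to total RNA in CPM of all reads was 1.38 for ADR1 and 0.860 for CAT8 without glucose, and 1.10 and 0.716 with glucose. HAP4 was at 0.603 without glucose and 0.373 with glucose, and SIP4 at 0.362 and 0.712. The all-feature medians of these ratios were not taken, so here too 1 need not be the level of a typical mRNA.

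**Figure D5:**
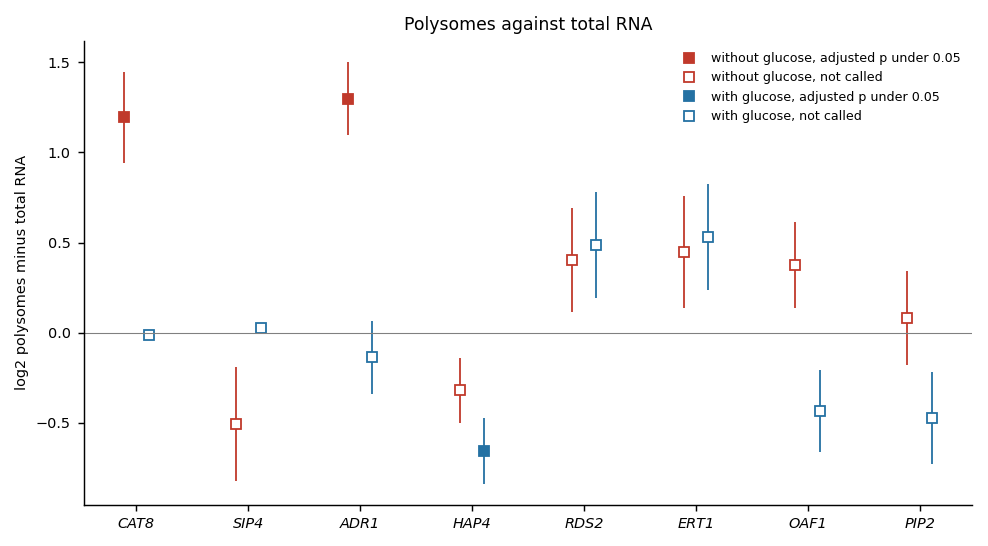
Log2 abundance in polysomes minus total RNA (± SE, 2 libraries per group, no bar for estimates within 0.05 of 0) for each gene, red without glucose and blue with glucose, filled for an adjusted p under 0.05. CAT8 (1.20) and ADR1 (1.30) are above 0 without glucose and near 0 with glucose, and HAP4 with glucose is at -0.66.

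Few reads were labelled after withdrawal in KWY11376. In total RNA without glucose HAP4 had 1.23% and 1.24% labelled reads, against 54.9% and 67.0% with glucose, and ADR1 had 3.44% and 1.83% against 54.9% and 59.6%. All 8 had lower labelled odds without glucose, with log2 differences between -6.97 ± 0.50 (HAP4) and -5.62 ± 0.75 (PIP2), as 99.6% of 5381 features had, around a median of -6.49. Between polysomes and total RNA without glucose the labelled odds of none of the 8 were called, beside 0.911% of features, and none of the 8 had an unadjusted p under 0.05 in edgeR's test. CAT8 had 13 and 17 labelled reads in polysomes and 2 and 8 in total RNA (0.95 ± 0.83, adjusted p = 0.647). With glucose, PIP2 had 26.9% and 25.8% labelled reads in polysomes, against 58.8% and 66.9% in total RNA (-2.25 ± 0.67, adjusted p = 0.00855), and OAF1 35.3% and 37.4% against 59.7% and 63.0% (-1.48 ± 0.59, adjusted p = 0.0449). These 2 of the 8 stood beside 34.4% of features with lower odds, and the all-feature median was -1.02. Both calls were lost without any 1 of the 4 libraries with glucose (-2.00 to -2.50 for PIP2, -1.38 to -1.58 for OAF1) and with conversions per covered T (-1.54 and -1.32), and the OAF1 call with the replicate number as a block (adjusted p = 0.0813). The difference of these contrasts between the conditions was called for none of the 8, and none had an unadjusted p under 0.05 there, where 17.6% of features passed. ADR1, at -0.89 ± 0.40 with glucose (adjusted p = 0.0696), was called there without any 1 of the 4 libraries without glucose (-0.89), and CAT8 with conversions per covered T (-5.43).

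Across the 14 group means of the chase, the features whose log2 CPM was most like that of each gene, among 5223 features with enough reads, were described by Pearson's r, with libraries and depth shared by all points. For CAT8 they were YKL091C (0.997), FMP33 (0.995) and PAU23 (0.995), and for ADR1 YCR099C (0.991), YMR181C (0.988) and YGL193C (0.988). HAP4 was most like YOR385W (0.969), TYE7 (0.959), a regulator of glycolytic genes, and YMR315W-A (0.956). SIP4 was most like URA10 (0.975), MAL12 (0.967) and NDE2 (0.965), an external NADH dehydrogenase of mitochondria, and RDS2 like USE1 (0.979), YDR215C (0.971) and PCL6 (0.971). PIP2 was most like DOG1 (0.983), AVT3 (0.975) and YOR1 (0.973), OAF1 like AIM14 (0.943), FSH2 (0.938) and YHR130C (0.928), and ERT1 like MTC7 (0.889), NFS1 (0.878) and FEX2 (0.875). Among the 8 themselves, CAT8 and ADR1 were closest to each other (0.949), RDS2 was closest to CAT8 (0.947) and SIP4 to ADR1 (0.943). OAF1 was closest to PIP2 (0.903), but PIP2 was closest to SIP4 (0.937). HAP4 had CAT8 as its closest (0.719) and ERT1 had no member above an r of -0.568.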

How the data were processed

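Reads of 40 yeast libraries had been counted by the authors with slamdunk 0.4.3 in 3′ windows of 5560 features, per the file headers. Per the labels' protocols, SLAM-seq RNA was alkylated with iodoacetamide and made into Quantseq 3′ end libraries, and polysome enrichment used polyA selection and a NextFlex directional kit. The protocols do not settle which kit made the polysome and total RNA libraries with 4TU. How the reads were aligned, on which genome build, whether counting used the strand and how many conversions count as label, the labels and headers used here do not say. The deposited tables hold whole-number counts of reads, of labelled reads, of covered T positions and of conversions on them. They also hold the authors' CPM, the authors' conversion rate as a fraction of covered T positions, and multimapped read counts. The CPM printed here were recomputed from the deposited counts with TMM factors.

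Groups were taken from the labels. The counts were fitted with edgeR 4.0.16 (robust quasi-likelihood test, TMM factors, filterByExpr) in R 4.3.3, with 1 mean per group, over the 28 chase libraries or the 8 polysome and total RNA libraries with 4TU. P-values were adjusted with Benjamini-Hochberg over all features tested, with a threshold of 0.05. Labelled reads were fitted in edgeR with 1 slope per condition over 0 to 45 min, given per 10 min. This was done both as odds against unlabelled reads (an intercept per library) and as CPM scaled to all reads with TMM factors. The features fitted averaged 50 or more reads per library and had 10 or more labelled reads in all. All 28 libraries enter these fits as independent, although a course may be 1 culture sampled at each time. Libraries without 4TU have 1 per group, no test and exact Poisson intervals. Intervals cover counting error only, since the reads carry no molecular identifiers. The fits were tested on simulated data.

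Alternatives were library totals, DESeq2 1.42.0 (its test or its size factors), reads scaled to 9 spike-in features of the chase tables, other filters, time windows or libraries in the fit, limma 3.58.1 on 1 slope per course, conversions per covered T, a replicate block, and each course or library left out. Same-numbered libraries of the 2 conditions at 1 time had correlations of their deviations between -0.343 and 0.284, so the numbers were not taken as pairs. Between times of the same course the correlations ran from -0.376 to 0.494, the highest between 15 and 20 min without glucose. Polysomes and total RNA with glucose were at 0.307. A pairing within courses or between these fractions was not modelled, apart from the replicate block. The members, the 6 pathway lists (from textbook knowledge) and the tests were chosen with earlier results of these data known. Named were the 8 genes, the 3 features most like each over the chase, the 3 Hap partners and the 2 genes of each pathway list with the smallest p at 30 min of the chase. Tables and plots were made in Python 3.11.15 (pandas 2.3.3, NumPy 2.4.6, SciPy 1.17.1, matplotlib 3.10.9).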

Additional observations from a re-analysis of the deposited data

Results flagged for a closer look

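Each value here is a difference between conditions or experiments that itself passed edgeR's test at an adjusted p under 0.05. Groups of 2 libraries are too small to test for a library that stands apart.

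The polysome association was higher without than with glucose for ADR1 (1.44) and CAT8 (1.21), the CAT8 call being lost without any 1 of 6 libraries (0.93 to 1.28). Of all features 8.16% had a higher one. The slope of labelled reads per 10 min was higher without than with glucose for CAT8 (1.78), ADR1 (1.30), RDS2 (0.75), SIP4 (0.68), PIP2 (0.53) and OAF1 (0.40), beside 74.3% of all features. CAT8 and SIP4 passed the minimum of 50 reads for these slopes, and for those of labelled odds, only through the libraries without glucose, in which they were high. The slope of labelled odds was higher without glucose for RDS2 (0.54), CAT8 (0.42), HAP4 (0.30), OAF1 (0.29), ERT1 (0.27) and ADR1 (0.27). It was so for 93.2% of all features, with a median of 0.39 over all features. The change on withdrawal was higher in the chase than in total RNA for CAT8 (2.86), ADR1 (2.41), OAF1 (1.99) and PIP2 (1.26), and lower for SIP4 (-1.47, not called without the second chase library with glucose, -1.23). Among all features it was higher in the chase for 24.1% and called in either direction for 43.4%.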

How the results depend on the processing

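The values of single genes under the alternatives kept their side of the threshold in 2402 cases. These include uncalled values whose direction turned, such as PIP2 at 10 min with a course left out (-0.16 to 0.15). In the other cases a call was lost in 125, a call was gained in 38 and a called value turned its direction in 3. All 3 were scaled to the spike-in: OAF1 at 45 min (-0.32), and the slopes of labelled reads without glucose of PIP2 (-0.0366) and RDS2 (-0.0237). The cause was not tested. Counts of the 8 genes called moved as follows.

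With library totals, 1 gene was lower at 0 min, 0 at 10 and 15 min, 1 lower between 30 and 45 min and 0 lower in the chase against total RNA. In polysomes against total RNA 1 was then higher and 2 lower without glucose, 4 lower with glucose, and 1 higher in the difference. Scaled to the spike-in, 1 was higher at 5 min, 3 higher at 15 min, 1 lower at 30 min, and 4 higher and 1 lower at 45 min. In steps it gave 0 higher between 15 and 20 min, 1 higher between 20 and 30 min, and 0 higher and 2 lower between 30 and 45 min, and labelled reads rose for 2 without glucose. With DESeq2 1 was lower at 0 min and 1 at 5 min. With the 4 libraries of a time alone 1 was lower at 0 min, and 1 higher and 1 lower at 5 min. In 1 condition alone 0 were lower in polysomes with glucose. With the difference at 0 min subtracted 1 was higher at 5 min and 1 lower at 30 and at 45 min.

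For labelled reads without glucose 1 was lower over 0 to 20 min, over 0 to 30 min and with limma. A minimum mean of 200 reads, which left 4 of the 8, gave 3 higher in the difference, 4 lower with glucose, and 2 higher and 1 lower without glucose for labelled reads, and 4 lower in each condition for labelled odds. The odds fell more slowly without glucose for 3 over 0 to 30 min, and fell without glucose for 5 over 0 to 20 min. On polysomes with glucose 1 had lower odds with conversions per covered T and 1 with the replicate block (OAF1 at -1.48 and not called). The block changed no other call.

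Leaving out 1 course or library at a time gave 0 to 1 lower at 0 min, 1 to 2 higher at 5 min, 0 to 0 lower at 10 min, 0 to 1 lower at 15 min and 1 to 2 lower in total RNA. In steps it gave 1 to 3 higher between 5 and 10 min, 1 to 2 between 10 and 15 min, 0 to 0 between 15 and 20 min, 1 to 4 higher and 0 to 1 lower between 20 and 30 min, and 0 to 1 higher between 30 and 45 min. It gave 0 to 1 lower in the chase against total RNA, 2 to 5 higher and 1 to 2 lower for labelled reads without glucose, 3 to 7 higher for the difference of labelled odds, and 0 to 3 lower odds on polysomes with glucose. For polysome association it gave 1 to 2 higher in the difference and 0 to 1 lower with glucose. A group left with 1 library is assumed to vary like the others. CAT8, SIP4, RDS2 and ERT1 had 5 to 32 reads in their lowest chase libraries, which limits small differences.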

Other observations

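The target lists of the activators moved in total RNA of KWY11376 as well, where 29.4% of features were higher and 58.7% were called in either direction. There 9 of 10 genes of the Cat8 and Sip4 type, 8 of 8 of the Adr1 type and 13 of 14 of the Oaf1 and Pip2 type were higher without glucose and none lower, with medians of 2.58, 4.69 and 2.61, against -0.02 over all features. Of the 21 genes of the Hap type 16 were higher and 1 was lower (median 0.84), and of the 14 Snf1 and Mig genes 4 were higher and 4 lower (median 0.26). Of the Hap subunits, HAP5 was higher (1.24 ± 0.25, edgeR adjusted p = 0.000514), HAP3 was lower (-0.85 ± 0.20, edgeR adjusted p = 0.00197) and HAP2 did not pass (0.51 ± 0.27).

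Labelled reads, as normalised CPM, rose in the chase without glucose for 18 and fell for 1 of the 21 genes of the Hap type, with a median slope of 0.24 per 10 min. Of the 14 genes of the Oaf1 and Pip2 type, 10 passed the minimum of 50 reads with glucose alone, and of these 8 rose and 1 fell, with a median of 0.42. Of all features 15.3% rose and 80.1% were called in either direction, with a median of -0.21.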
